A study of Populus trichocarpa and Populus tremula x Populus alba with 22 samples.

Results

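The 4 genes described here are the poplar MYB46/83 type regulators of wood formation, MYB002 (Potri.001G258700), MYB021 (Potri.009G053900), MYB003 (Potri.001G267300) and MYB020 (Potri.009G061500). They were chosen by gene ID, and all 4 were found among the 42950 genes listed in each of 4 tables. The RNA-seq data comprise 22 libraries from 2 experiments. One grew Populus trichocarpa hydroponically with 0 µM Fe (plants P7, P22 and P30) or 10 µM Fe (plants P11, P13 and P17) for 21 days and took young leaf and 3rd internode from every plant. The other compared poplars transformed to overexpress PtrbHLH011 (OE), a transcription factor gene, with empty-vector transformants, all Populus tremula x Populus alba and 4 months old. It has 3 leaf libraries and 2 stem libraries of each genotype. Library names carry 1 code per genotype, and the sources used here do not state the construct's promoter or how many independent lines were used. If each code is 1 line, a difference between lines cannot be told apart from overexpression. The level of PtrbHLH011 itself was not checked, because the tables hold gene IDs without names, and for the same reason the tissues were not checked against markers.

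MYB46 and MYB83 of Arabidopsis are R2R3-MYB transcription factors that switch on the program of secondary wall deposition. They act just below the NAC domain master switches (VND and SND types) and bind short elements in the promoters of genes for secondary wall cellulose, xylan and lignin, and of further MYB genes. The poplar genes fall into 2 duplicate pairs, MYB002 with MYB021 and MYB003 with MYB020, and all 4 are known from poplar as activators of secondary wall genes in wood. In stems their transcripts mark cells that lay down secondary walls, that is vessels and fibres, whereas in a leaf such cells lie in the veins. In bulk tissue, fewer such cells and less of the transcript per cell cannot be told apart.

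Levels by tissue are given as CPM, counts scaled to a common library total, from whole counts recovered from the deposited values and called reads here. The tables were normalized separately, so levels across tissues are described and not tested. All 4 genes stood highest in stems of the transgenic plants and at 0.09998 to 3.87 CPM in leaf libraries. In OE plants MYB021 had 67.0 and 60.7 CPM in the 2 stems and 3.87, 1.04 and 2.69 CPM in the 3 leaves. In empty-vector plants it had 55.9 and 65.4 CPM in stem and 3.59, 3.20 and 1.45 CPM in leaf. No leaf library came near the stems, and the mean stem level of MYB021 was 25.2 times the leaf level in OE plants and 22.1 times in empty-vector plants. MYB003, at only 8 to 14 reads in each of these leaf libraries, stood at 15.4 times the leaf level in OE stems and 44.3 times in empty-vector stems. For MYB002 the ratio of stem to leaf was 9.47 in OE and 10.9 in empty-vector plants, and for MYB020 it was 7.35 in OE and 6.31 in empty-vector plants. Every stem library lay above every leaf library of its genotype for all 4 genes, as it did for 33.2% of genes in OE and 37% in empty-vector plants. A mean at least 4-fold higher in stem, which all 4 genes had, was found for 8.3% of genes in OE and 10.8% in empty-vector plants.

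**Figure D1:**
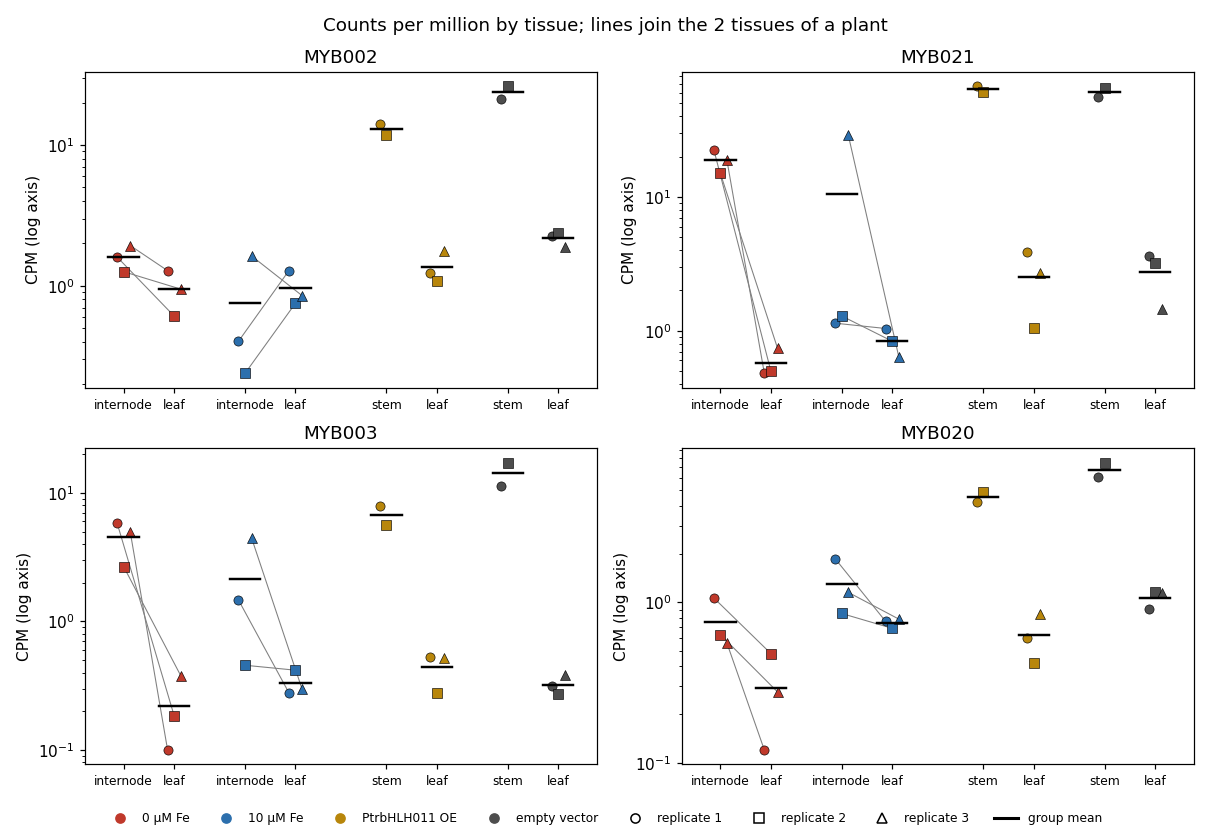
CPM of each gene (log axis) in internode and leaf of the Fe experiment and in stem and leaf of the overexpression experiment. Points are libraries, bars are group means, and grey lines join the 2 tissues of a plant; MYB021 stands far above leaf in all 3 internodes without Fe (14.9 to 22.5 CPM) but in only 1 of the 3 control internodes.

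In the Fe experiment the tissue contrast depended on the plant. In plants without Fe, MYB021 had 18.7 (P7), 22.5 (P22) and 14.9 (P30) CPM in the internode and 0.480, 0.498 and 0.742 CPM in the leaf of the same plants. In control plants it had 1.14 (P11), 1.29 (P13) and 29.0 (P17) CPM in the internode and 1.04, 0.835 and 0.638 CPM in leaf. The ratio of internode to leaf was therefore 20.1 to 45.3 in the 3 plants without Fe, 45.4 in control P17, and only 1.096 in control P11 and 1.54 in control P13. For MYB003 the ratio was 49.96 (P7), 31.8 (P22) and 7.07 (P30) without Fe, against 5.29 (P11), 1.093 (P13) and 15.04 (P17) in the controls, so that P17 fell within the range of the plants without Fe. MYB002 was higher in internode than in leaf in all 3 plants without Fe (1.33 to 2.63 times) and in P17 (1.91 times). In P11 and P13 it was lower in internode, at 0.314 and 0.317 of the leaf level. MYB020 did not separate P17 from the other controls: its internode level was 2.23 to 4.64 times the leaf level without Fe and 1.24 to 2.47 times in the controls. In CPM every internode library lay above every leaf library at both Fe levels for MYB021, MYB003 and MYB020. This arrangement was shared by 46.2% of genes without Fe and 41.6% with Fe. In controls the margin was small for MYB021 (1.14 against 1.04 CPM) and MYB003 (0.456 against 0.418 CPM). Another scaling over all libraries of the experiment (TMM) lowered every ratio of mean internode to mean leaf level. In controls it went from 12.5 to 10.4 for MYB021 and from 1.74 to 1.32 for MYB020. For MYB002 without Fe it went from 1.69 to 1.33. Single libraries and plants were not compared on that scale, so small margins may depend on the scaling.

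Ordered by mean level, stems came first for each gene. Stems and internodes belong to different experiments, so species, sequencing platform and RNA kit cannot be told apart from tissue in this order. For MYB002 the stems of empty-vector plants (23.7 ± 3.46 CPM, SD, n = 2) stood above those of OE plants (12.9 ± 1.67 CPM, n = 2), and the other groups averaged 0.756 to 2.17 CPM. Among these, empty-vector leaves (1.87 to 2.38 CPM) lay above OE leaves (1.08 to 1.77 CPM), and the groups of the Fe experiment overlapped. For MYB021 the 2 stem groups overlapped, at 63.9 ± 4.42 CPM in OE and 60.7 ± 6.69 CPM in empty-vector plants (SD, n = 2 each). Below them came the internodes without Fe (18.7 ± 3.80 CPM, n = 3) and then the control internodes (10.5 ± 16.02 CPM, n = 3), whose libraries reach from leaf level to above every internode without Fe. Leaf groups of MYB021 averaged 0.573 to 2.75 CPM. For MYB003 the order was empty-vector stem (14.3 ± 4.09 CPM), OE stem (6.77 ± 1.64 CPM), internode without Fe (4.51 ± 1.64 CPM) and control internode (2.14 ± 2.09 CPM), with the leaf groups at 0.221 to 0.440 CPM. OE stems overlapped with internodes without Fe, and these with control internodes. MYB020 spanned less, from 6.75 ± 0.989 CPM in empty-vector stems and 4.58 ± 0.463 CPM in OE stems to 0.292 ± 0.180 CPM in leaves without Fe.

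**Figure D2:**
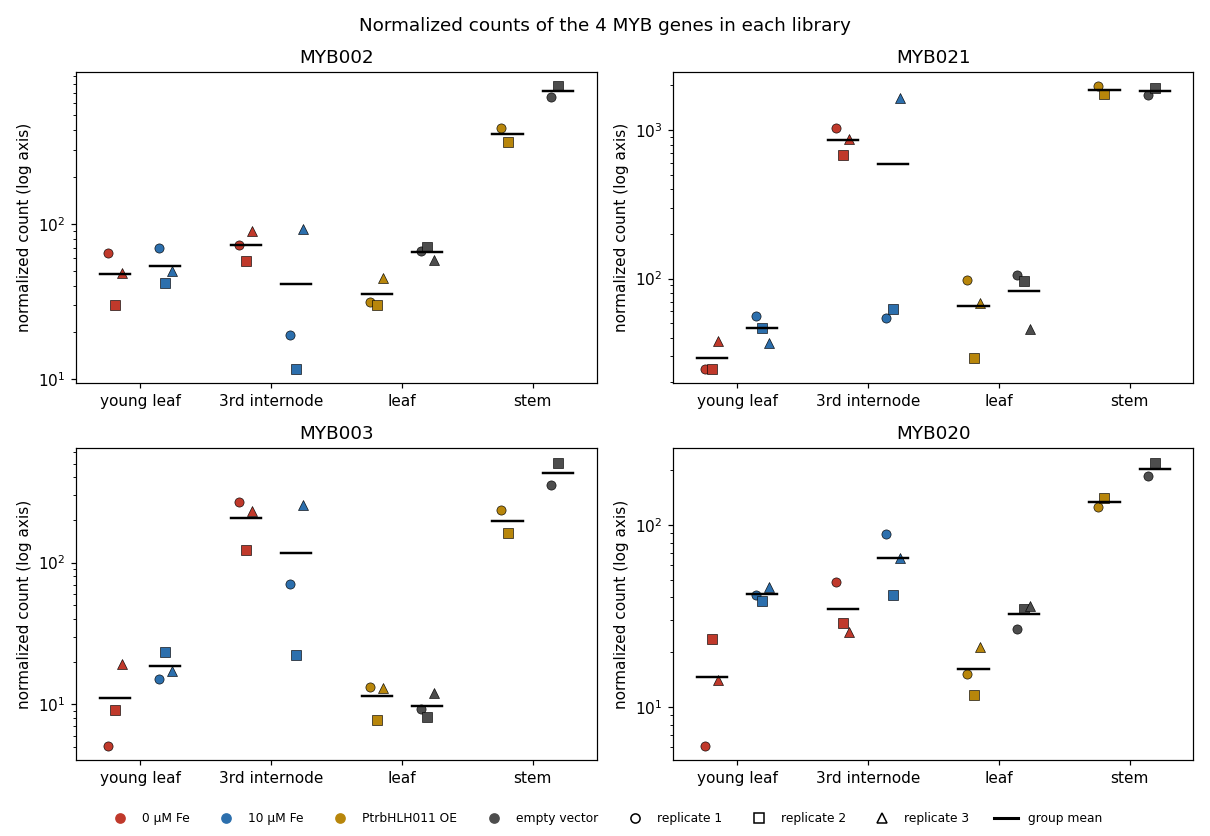
Normalized counts of the 4 genes (log axis) in each library, by comparison; points are libraries, with a marker shape for each replicate number, and bars are group means. The third control internode stands with the internodes without Fe for MYB002, MYB021 and MYB003, and apart from the other 2 controls.

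One library stood apart for 3 of the 4 genes before any test. In the 3rd internode of control plant P17 (control replicate 3), MYB021 was 26.4 times the higher of the other 2 controls, MYB002 4.86 times and MYB003 3.64 times. MYB020 was not, at 0.739 times. Of the 29219 genes tested, 1.92% were at least 4-fold above both other controls in P17 and 1.32% at least 4-fold below both. P11, with the fewest reads of the Fe experiment, deviated as well, with 0.661% above and 3.20% below. For P13 these shares were 0.219% and 0.582%. Over all those genes the root mean square difference of P17 from the other controls, in log2 of value + 1, was 1.36 (from P11) and 0.956 (from P13), against 1.01 between P11 and P13. The differences of P17 from the 3 internodes without Fe were 1.07 to 1.22, those of P11 1.02 to 1.23 and those of P13 0.971 to 1.08. Over all genes P17 thus stood about as far from them as the other controls did. What sets the P17 library apart for these genes was not tested. Fe effects in the internode are therefore given with and without this library.

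The comparisons that follow use the deposited normalized counts and were fitted within each table. The test was limma on log2(value + 1), two-sided, with Benjamini-Hochberg adjustment over all genes tested and a threshold of 0.05. Fold changes are on that scale, which understates changes of low genes. All 4 genes passed the filter for low values (at least 10 in as many libraries as the smaller group holds) in each of the 4 comparisons. In leaf, MYB003 passed with only 4 of 6 libraries at 10 or more in the Fe table and 3 of 6 in the overexpression table.

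The first comparison asked what 21 days without Fe did to these regulators in young leaves. None of the 4 passed the test, and all 4 had negative fold changes. MYB020 had the largest difference: its normalized counts were 6.12 (P7), 23.7 (P22) and 14.04 (P30) without Fe, against 41.2 (P11), 38.3 (P13) and 45.7 (P17) with Fe. Every leaf without Fe lay below every control leaf, an arrangement that 15.6% of the 28632 genes tested shared. Its log2 fold change was -1.62 ± 0.540 (SE, n = 3 each, 95% interval -2.88 to -0.37, limma adjusted p = 0.112), and 6.31% of genes passed the test in this comparison. MYB021 had 24.5, 24.6 and 37.7 without Fe, against 56.3, 46.5 and 37.0 with Fe. The groups overlapped only at the highest leaf without Fe and the lowest control leaf (log2 -0.68 ± 0.387 SE, limma adjusted p = 0.326). MYB003 had 5.10, 9.12 and 19.2 without Fe, against 15.1, 23.2 and 17.3 with Fe (log2 -0.84 ± 0.591 SE, limma adjusted p = 0.429). These MYB003 values rest on 5 to 26 reads a library. MYB002 differed least, with 65.2, 30.1 and 48.0 without Fe, against 69.3, 41.8 and 49.4 with Fe (log2 -0.20 ± 0.413 SE, limma adjusted p = 0.818). The median log2 fold change of the 4 was -0.76, beside -0.01 over all genes tested.

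In the 3rd internode of the same plants MYB002, MYB021 and MYB003 had positive fold changes whose size depended on single control libraries and whose calls turned on control P17. With all libraries 0 of the 4 genes passed limma's test, and 0 passed that of edgeR or DESeq2 on the recovered reads. At an unadjusted limma p under 0.05 the number was also 0. MYB021 stood at 868 (P7), 1029 (P22) and 683 (P30) without Fe, against 54.2 (P11), 62.5 (P13) and 1653 (P17) with Fe. All 3 internodes without Fe were far above P11 and P13, and all were below P17. The log2 fold change was 2.24 ± 1.28 (SE, n = 3 each, 95% interval -0.83 to 5.31, limma adjusted p = 0.399). The count tests gave a log2 fold change of 0.57 (edgeR) and 0.54 (DESeq2) for MYB021. MYB002 had 89.6, 73.1 and 57.5 without Fe, against 19.1, 11.5 and 93.0 with Fe (log2 1.35 ± 0.751 SE, limma adjusted p = 0.388). MYB003 had 232, 267 and 122 without Fe, against 70.2, 22.1 and 256 with Fe (log2 1.40 ± 0.858 SE, limma adjusted p = 0.431). Both genes repeat the arrangement of MYB021, with 2 controls below and P17 level with the plants lacking Fe. The median log2 fold change of the 4 genes was 1.37, beside 0.01 over all genes, and 0.712% of 29219 genes passed the test (1.37% with the replicate number as a block, where the adjusted p of the 4 genes was 0.226 to 0.300).

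Without P17, MYB021 and MYB002 passed the test, where 3.68% of genes did so and 2.32% in the upward direction. MYB021 then averaged 860 normalized counts without Fe, against 58.4 with Fe, and was 14.3-fold higher (log2 3.84 ± 0.233 SE, n = 3 against 2, 95% interval 3.26 to 4.42, limma adjusted p = 0.0131). MYB002 was 4.61-fold higher (log2 2.204 ± 0.394 SE, limma adjusted p = 0.0479). MYB003 had a log2 fold change of 2.28 ± 0.588 SE and did not pass (limma adjusted p = 0.102). Each library was left out in turn, this one was singled out because of its values, and with any other left out none of the 4 passed. Over all genes 1090 passed without P17 and 1499 without P11. The other controls moved the sizes too: without P13 the log2 fold change was 0.75 for MYB002, 1.49 for MYB021 and 0.55 for MYB003, and without P11 it was 1.39 for MYB021. MYB020 had a negative fold change in both fits, unlike its paralog MYB003. It had 25.9 (P7), 48.7 (P22) and 28.8 (P30) without Fe, against 89.3 (P11), 41.4 (P13) and 66.0 (P17) with Fe. Its groups overlapped, and the log2 fold change was -0.90 ± 0.419 SE (limma adjusted p = 0.311), and -0.86 without P17 (limma adjusted p = 0.375).

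**Figure D3:**
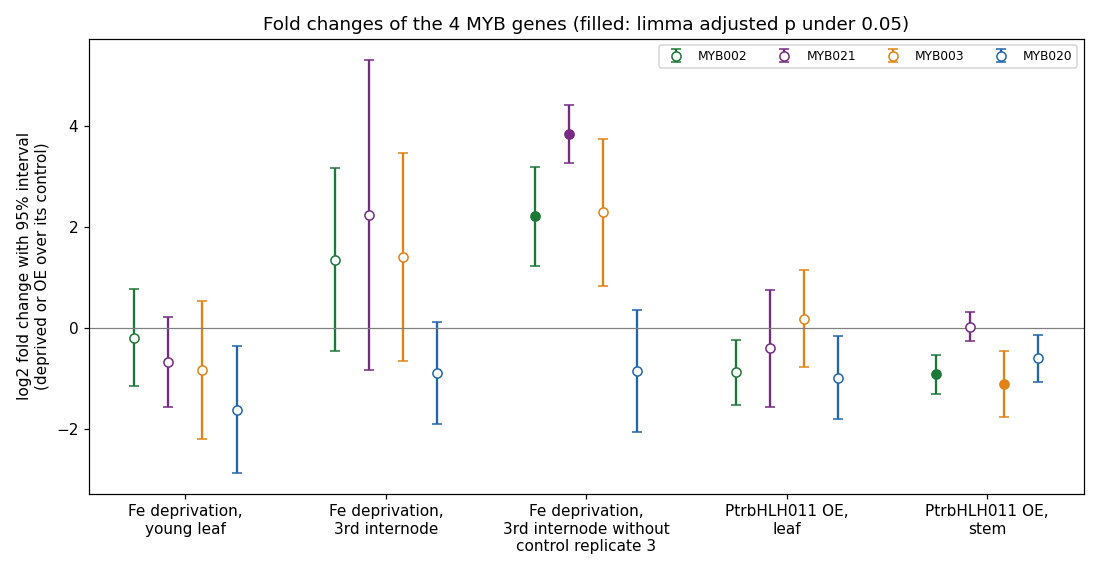
Log2 fold changes of the 4 genes with 95% intervals in each comparison, with Fe deprivation in the internode shown with all libraries and without control replicate 3 (plant P17). Filled points passed limma's test at an adjusted p under 0.05: MYB002 and MYB021 in the internode without that library, and MYB002 and MYB003 in OE stems. That library was singled out because of its values. With it neither MYB002 nor MYB021 passed in the internode (limma adjusted p = 0.388 and 0.399).

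Whether the Fe response differed between the tissues was tested on log2 values of leaf minus those of internode, plant by plant. The estimate was negative for all 4 genes, from -0.73 ± 0.386 SE for MYB020 to -2.92 ± 1.42 SE for MYB021 (n = 3 plants each). None passed the test (limma adjusted p = 0.380 to 0.418), and 0.494% of the 27351 genes tested in both tissues did. Without plant P17, singled out because of its values, the difference for MYB021 was -4.67 (limma adjusted p = 0.0405). Over all genes 119 passed in that fit, against 135 with every plant. No other of the 4 passed in that fit, and none with another plant left out.

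The next comparison asked how the 4 genes differed between leaves of OE and empty-vector plants. None passed the test, and for MYB002 and MYB020 every OE leaf lay below every empty-vector leaf. MYB002 had 31.4, 30.2 and 44.8 normalized counts in OE leaves, against 66.8, 71.2 and 58.7 in empty-vector leaves. Its log2 fold change was -0.89 ± 0.279 (SE, n = 3 each, 95% interval -1.53 to -0.24, limma adjusted p = 0.0581). MYB020 had 15.2, 11.7 and 21.5 in OE leaves, against 26.7, 34.6 and 35.9 in empty-vector leaves (log2 -0.99 ± 0.357 SE, limma adjusted p = 0.0866). Of the 27024 genes tested 19.1% likewise had every OE leaf below every empty-vector leaf, and 21.3% passed the test. With quantile normalization, which evens out the distribution of values between libraries, both genes passed, at a log2 fold change of -1.13 for MYB002 (limma adjusted p = 0.0248) and -1.33 for MYB020 (limma adjusted p = 0.0339). MYB021 had 98.1, 29.2 and 68.1 in OE leaves, against 105.8, 95.6 and 45.7 in empty-vector leaves, with a wide overlap (log2 -0.41 ± 0.502 SE, limma adjusted p = 0.599). MYB003 had 13.3, 7.79 and 13.1 in OE leaves, against 9.25, 8.13 and 11.96 in empty-vector leaves (log2 0.18 ± 0.414 SE, limma adjusted p = 0.786). Its sign turned with quantile normalization (log2 -0.32). The median log2 fold change of the 4 was -0.65, beside -0.0019 over all genes tested.

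In stem, the tissue with the highest levels of all 4 genes, MYB002 and MYB003 were lower in OE than in empty-vector plants. MYB020 and MYB021 did not pass the test. MYB002 had 417 and 336 normalized counts in the OE stems, against 655 and 773 in the empty-vector stems. It was lower by a factor of 1.90 (log2 -0.92 ± 0.158 SE, n = 2 each, limma adjusted p = 0.00884). MYB003 had 235 and 161 in OE stems, against 352 and 508 in empty-vector stems, lower by a factor of 2.17 (log2 -1.12 ± 0.261 SE, limma adjusted p = 0.0223). MYB020 had 126 and 141 in OE stems, against 187 and 220 in empty-vector stems. These groups did not overlap either, but MYB020 did not pass the test (log2 -0.60 ± 0.186 SE, limma adjusted p = 0.0506). MYB021, the duplicate of MYB002, had 1983 and 1741 in OE stems, against 1727 and 1934 in empty-vector stems. Its groups overlapped, with a log2 fold change of 0.02 ± 0.113 SE and a 95% interval of -0.26 to 0.30 (limma adjusted p = 0.884). A change as large as the estimate for MYB002 lay outside this interval. The median log2 fold change of the 4 was -0.76, beside -0.0033 over all genes tested.

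The 2 calls among 4 genes in stem have to be read against a comparison in which 37.2% of 24810 genes passed the test, 17.2% as lower in OE, and 36.9% had both OE stems below both empty-vector stems. They also rest on 2 libraries a group. The calls of both genes were lost without either OE stem (limma adjusted p = 0.0792 and 0.113 for MYB002, 0.0953 and 0.179 for MYB003) and without empty-vector replicate 1 (0.0600 for MYB002 and 0.0814 for MYB003). Without empty-vector replicate 2 MYB002 passed (limma adjusted p = 0.0387) and MYB003 did not (limma adjusted p = 0.0909). The fold changes kept their sign throughout, at a log2 of -1.08 to -0.77 for MYB002 and -1.39 to -0.85 for MYB003. Count tests on the recovered reads of all 4 stems, edgeR and DESeq2, also called both.

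A joint fit of leaf and stem, with no pairing of plants, tested whether the difference between OE and empty-vector plants varied between the 2 tissues. For MYB002 the leaf minus stem difference was 0.04 ± 0.333 SE, with a 95% interval of -0.70 to 0.78 (limma adjusted p = 0.940). For MYB003 the difference was 1.30 ± 0.497 SE (95% interval 0.19 to 2.41), which did not pass the test over 23372 genes (limma adjusted p = 0.0648), of which 36.2% did. With a pseudocount of 5 it passed (log2 1.24, limma adjusted p = 0.0410), and with a pseudocount of 0.1 it did not (limma adjusted p = 0.0767). Of the 10 fits with 1 library left out it passed only without OE leaf replicate 2 (log2 1.53, limma adjusted p = 0.0287). In the others the limma adjusted p reached up to 0.231. The leaf values of MYB003 rest on 8 to 14 reads a library. The differences for MYB021 (-0.43 ± 0.663 SE, limma adjusted p = 0.644) and MYB020 (-0.39 ± 0.435 SE, limma adjusted p = 0.517) did not pass.

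The balance within each duplicate pair was followed as the log2 ratio of the 2 genes in a library (each value + 1), which hardly depends on its depth. Gene length shifts this ratio by a constant, so only its differences between libraries are described. The log2 ratio of MYB002 to MYB021 was -3.54 ± 0.268 in internodes without Fe and -2.64 ± 1.37 in control internodes (SD, n = 3 each). It was 0.67 ± 0.618 in young leaves without Fe and 0.18 ± 0.294 in control young leaves, and -0.72 ± 0.836 in OE leaves and -0.24 ± 0.529 in empty-vector leaves (SD, n = 3 each), with overlap in all 3 comparisons. In stems it was -2.31 ± 0.0868 in OE and -1.36 ± 0.0523 in empty-vector plants (SD, n = 2 each), with no overlap, a difference of -0.95 (exact permutation test, two-sided, p = 0.333). The share of other gene pairs with no overlap in stem was not counted. In control internodes the ratio was -1.46 in P11, -2.34 in P13 and -4.14 in P17.

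**Figure D4:**
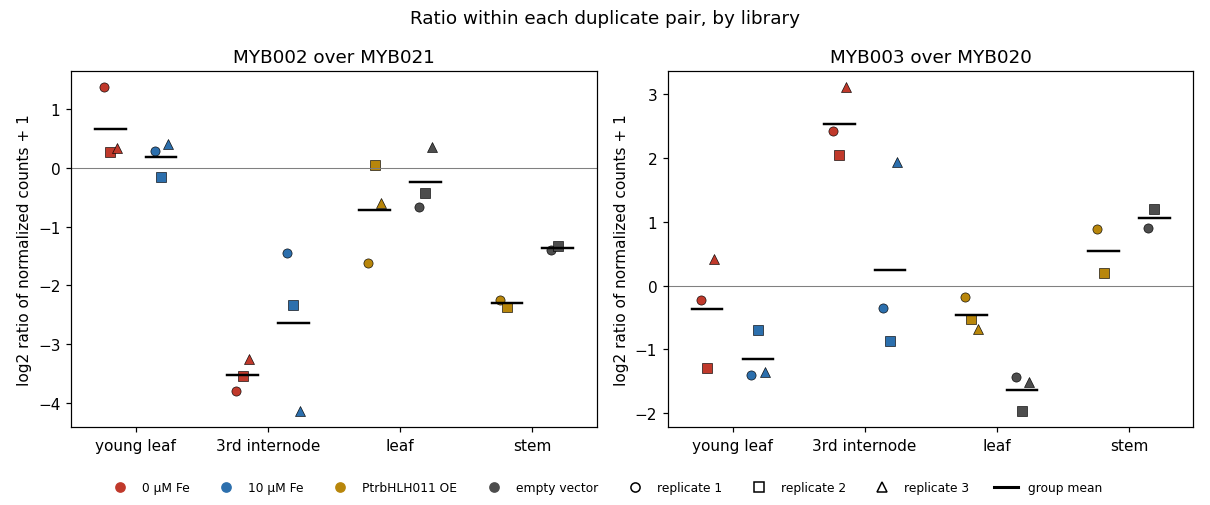
Log2 ratio of normalized counts + 1 within each duplicate pair, by library (points) with group means (bars). The ratio of MYB003 to MYB020 lies above that of its controls in all 3 internodes without Fe (2.05 to 3.12) and in all 3 OE leaves (-0.68 to -0.18). Neither passed (exact permutation p adjusted over 8 tests = 0.4), and how often other gene pairs separate was not counted.

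In the pair of MYB003 and MYB020 the ratio was higher in every internode without Fe and in every OE leaf than in any of their controls. Without Fe the log2 ratio of MYB003 to MYB020 was 2.43, 2.05 and 3.12 in the internodes of P22, P30 and P7, against -0.34, -0.87 and 1.94 in those of P11, P13 and P17. These groups did not overlap even with P17 included, and the means differed by 2.29 (two-sided exact permutation p = 0.1, which 3 libraries against 3 cannot go below). In OE leaves the ratio was -0.18, -0.53 and -0.68, against -1.44, -1.96 and -1.51 in empty-vector leaves, a difference of 1.17 (two-sided exact permutation p = 0.1). Adjusted over the 8 tests of pair ratios these were 0.4, and the designs cannot reach 0.05 before adjustment (the smallest p in stem is 0.333). How often other gene pairs show no overlap was not counted. The ratios in these leaves rest on 8 to 14 reads a library for MYB003 and 12 to 34 for MYB020. MYB020 by itself was lower in every OE leaf than in every empty-vector leaf. In young leaves the ratio averaged -0.36 ± 0.866 without Fe and -1.15 ± 0.389 with Fe (SD, n = 3 each), and the groups overlapped. In stem the ratio was 0.89 and 0.19 in OE plants, against 0.91 and 1.20 in empty-vector plants. The sources used here do not state how reads shared by close paralogs were counted, so these ratios carry that uncertainty.

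Across all 22 libraries, with the mean of each table removed, Pearson r was 0.82 between MYB002 and MYB021, 0.76 between MYB021 and MYB003 and 0.72 between MYB002 and MYB003. MYB020 had an r of 0.03 with MYB002, -0.0013 with MYB021 and 0.25 with its own paralog MYB003. The likeness of MYB002, MYB021 and MYB003 was not seen in every table. Over the 6 young leaves of the Fe experiment r was 0.37 between MYB002 and MYB021, 0.78 between MYB021 and MYB003 and -0.16 between MYB002 and MYB003. MYB020 had an r of -0.21 with MYB002, 0.68 with MYB021 and 0.72 with MYB003 there. Over the 6 leaves of the overexpression experiment r was 0.45 between MYB002 and MYB021, 0.23 between MYB021 and MYB003 and -0.21 between MYB002 and MYB003. There MYB020 had an r of 0.94 with MYB002, 0.38 with MYB021 and 0.03 with MYB003. In internodes P11 and P13 lie apart from the other 4 libraries for MYB002, MYB021 and MYB003, so the values over 22 libraries hold these separate clusters and no r is given for internodes alone, nor for the 4 stems. All these values are descriptions over libraries that share groups and normalization.

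Among 22343 genes tested in all 4 comparisons, those whose centred profile was most like the mean of the 4 MYB genes were Potri.014G058200 (r = 0.91), Potri.008G069900 (r = 0.91), Potri.015G060900 (r = 0.89) and Potri.004G162800 (r = 0.88), over 22 libraries. MYB003, MYB021 and MYB002 themselves ranked 3, 4 and 10 by this measure, to which they contribute, and MYB020 ranked 1354. Without control internode P17 the 4 unnamed genes ranked 6, 1, 9 and 26. In the Fe-deprived internode their log2 fold changes were 2.72, 2.36, 2.01 and 0.50 in the same order, and in OE stems they were -0.81, -0.42, -0.60 and -0.52. These are descriptions with no test, since the genes were picked for their profile over the same libraries. The tables do not pair these IDs with names.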

How the data were processed

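The data are 4 tables of 42950 genes, 1 for each comparison. Per the labels they hold normalized counts. In the deposited columns each signal is a whole number over a factor common to the library, and the authors normalized each table by itself. The submitters' processing notes list DESeq2 2.11.40.7, StringTie 2.2.1 and HISAT2 2.2.1 and say nothing of what each did. The sources used here do not state the genome build or how strand and near-identical copies were counted. The Fe experiment used poly(A)-selected Illumina libraries and the other strand-specific DNBSEQ libraries, with another RNA kit, per the labels' protocols, so the experiments were not fitted together.

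Dividing each value by the smallest in its library gave whole numbers for 100% of values (tolerance 0.001), called reads here. The young-leaf columns are headed as StringTie gene counts, and how such counts were derived from sequenced reads is not stated. Libraries held 26620695 to 68689878 reads, 29840597 to 68689878 in the Fe experiment and 26620695 to 30101710 in the other. CPM were computed from them, and edgeR 4.0.16 and DESeq2 1.42.0 were run on them as alternatives. The genes called by edgeR numbered 1895 (young leaf), 97 (internode), 5847 (OE leaf) and 9237 (OE stem). Tests were made with limma 3.58.1 under R 4.3.3, using its trend option, and were tested on simulated data. No 2 libraries of a group agreed within sampling noise (chi-square per degree of freedom of at least 9.41). The main fits did not pair libraries by replicate number, and a block on that number was an alternative in each of the 4 comparisons. In the internode, deviations from the group means of same-numbered libraries correlated at 0.27, 0.12 and 0.48. This comes from the data and not from the labels, and it does not link plants. Deprived internode 2 correlated more with control 1 (0.18) than with control 2 (0.12). Same-numbered OE and empty-vector leaves also correlated positively (0.05 to 0.29), so these values do not establish a pairing. Limma p-values set each difference against the spread between libraries, moderated over all genes. They may not cover the spread between independent transformed lines, whose number is not stated.

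The 4 genes, the tests and the alternatives were chosen with earlier results of these data known. The 4 genes are always named, and beside them the 4 genes with the profile most like their mean. Of the IDs, 0 matched the reference gene table, so no other gene is given a name or role and no wall gene list is reported.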

Additional observations from a re-analysis of the deposited data

How the results depend on the processing

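Of 137 fold changes of the 4 genes recomputed under other settings, 128 kept their direction and their side of the threshold, and of 88 with 1 library left out 74 did. Signs turned with quantile normalization for MYB003 in OE leaves (-0.32) and MYB021 in OE stems (-0.022). Calls were gained in OE leaves with quantile normalization for MYB002 (-1.13) and MYB020 (-1.33) and with sample weights, chosen after the data were seen, for both (-0.80 and -0.83). MYB020 gained a call in OE stems with a filter at 50 (-0.60), with quantile normalization (-0.67) and with the replicate block (-0.60), and the leaf minus stem difference of MYB003 with a pseudocount of 5 (1.24). The causes were not tested. With 1 library left out, log2 fold changes ran from -0.45 to 0.10 (MYB002) in young leaf, from 0.75 to 2.204 (MYB002), 1.39 to 3.84 (MYB021) and 0.55 to 2.28 (MYB003) in internode, from -0.78 to 0.079 (MYB021) in OE leaf, and from -1.08 to -0.77 (MYB002), -0.070 to 0.12 (MYB021) and -1.39 to -0.85 (MYB003) in OE stem. The remaining library of a stem group is then assumed to vary like the others. The leaf minus internode difference of MYB021 ran from -4.67 to -1.92, and the leaf minus stem differences from -0.14 to 0.19 (MYB002), -0.80 to 0.055 (MYB021) and 1.03 to 1.57 (MYB003). The log2 ratio of internode to leaf of MYB021 in control plants was 3.64, and 0.54 without the P17 internode.

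Genes called numbered 1807 in young leaf (4744 with DESeq2, 343 with the replicate block, 6530 with sample weights, 230 to 3165 with 1 library left out) and 208 in internode (97 with edgeR, 3328 with DESeq2, 401 with the replicate block, 1485 with sample weights, 0 to 1499 with 1 library left out). They numbered 5760 in OE leaf (12199 with sample weights, 2739 to 5704 with 1 library left out) and 9230 in OE stem (0 to 7233 with 1 library left out, 0 being the number without either OE stem). The Fe response differed between tissues for 135 genes, 72 with a pseudocount of 0.1, 1 with the replicate block and 0 to 156 with 1 plant left out. The difference between OE and empty-vector plants varied with tissue for 8449 genes, and for 5329 to 8763 with 1 library left out. No pairing by replicate number was established in any comparison, so the block only shares a number. Same-numbered libraries correlated at 0.12 to 0.48 in internode, -0.25 to 0.09 in young leaf, 0.05 to 0.29 in OE leaf and 0.07 in stem. MYB003 in leaf, at 5 to 26 reads a library, is limited by depth.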
